A study of Homo sapiens with 4 samples.

Results

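The haematopoietic cytokine receptors described here were the 10 genes CSF1R, CSF2RA, CSF2RB, CSF3R, IL3RA, IL6R, IL7R, IL10RA, IFNGR1 and IFNGR2, chosen by name and represented by every probe set that the platform annotation assigns to one of them. This gave 19 of 54613 probe sets and 10 of 19775 genes of the Affymetrix HG-U133 Plus 2.0 array, whose probe sets each report a transcript or several related ones. The arrays compared 2 kinds of U937 cell. In the knock-down cells the lentiviral vector pSICO-R expressed a short hairpin that targets PIR, and the control cells had pSICO-R with no insert (empty vector). U937 is a human line from a histiocytic lymphoma with features of monocytes, and PIR encodes pirin, a nuclear cupin-fold protein that binds iron. Both lines therefore carry the vector, the knock-down rests on 1 hairpin, and the control has no hairpin of another sequence. RNA from 3 extractions was mixed into 1 pool for each condition. As 2 arrays were run from each pool, the 4 arrays repeat the hybridisation step alone, n = 2 stands for arrays of 1 pool, and no p-value for the condition can be given.

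Cytokine receptors carry signals from secreted proteins to the cell interior and set the survival, growth and maturation of blood cells. CSF1R is a receptor tyrosine kinase, the receptor of macrophage colony-stimulating factor. CSF2RA and IL3RA are the ligand-binding chains for GM-CSF and interleukin-3 and signal through the common beta chain CSF2RB, while CSF3R binds G-CSF. IL6R pairs with IL6ST (gp130), IL7R with IL2RG (the common gamma chain), IL10RA with IL10RB, and IFNGR1 with IFNGR2. Apart from CSF1R these chains have no kinase domain and act through JAK kinases and STAT transcription factors.

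The question was how the signals of these receptors differed between the 2 pools. IL7R was the receptor with the largest difference, at least 2.00-fold and at least 1.78-fold higher in the knock-down pool on its 2 probe sets. These are bounds, taken with no pseudocount, because its empty-vector signals lay below the brightness limit defined next. With 18.4 added to each signal, as in the scale given below, the differences were 2.87-fold and 3.82-fold. CSF1R, CSF2RA, CSF3R, IFNGR2, IL10RA, CSF2RB and IFNGR1 had higher signals by smaller amounts, IL6R signals differed by little, and IL3RA lay near the bottom of the signal range in both pools. Differences are given on the scale log2(signal + 18.4), which understates the change of dim probe sets. The 60th percentile of signal on each array (116.4 to 125.5) served as a brightness limit, and a probe set counted as measured if 1 pool or both had the 2 arrays at or above it. By this, 18 of the 19 probe sets and 9 of the 10 genes were measured. The size rule asked for a 2-fold difference or more between pool means, for each of the 4 pairings of a knock-down with an empty-vector array to differ the same way by 0.5 or more (log2), and for the brighter pool to pass the brightness limit on its 2 arrays.

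By this rule 2 member probe sets were higher and 0 were lower, against 2.28% higher and 1.44% lower among all 21933 measured probe sets. With 1 probe set per gene, the one of highest mean log2 signal, 1 receptor gene was higher and 0 were lower, against 2.43% and 1.08% of 10288 measured genes. Both knock-down arrays lay above both empty-vector arrays for 14 of the 18 measured member probe sets, where 37.4% of all measured probe sets did so, and below them for 1, where 33.3% did so. For the genes the counts were 8 of 9 above and 1 below, where 40.9% and 31.2% of all measured genes did so. A difference of the pool means of at least 1.5-fold was found for 4 member probe sets and 2 member genes, where 8.68% of measured probe sets and 8.91% of measured genes reached it. The median log2 difference was 0.43 over the 9 measured receptor genes and 0.05 over all measured genes, of which 55.2% had a positive difference. The members and rules were chosen with earlier results of these data known, and probe sets of 1 gene are not independent. These counts and shares therefore describe the receptors and test nothing. The arrays measure bulk RNA, so a larger share of cells with a transcript and more transcript per cell cannot be told apart.

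**Figure D1:**
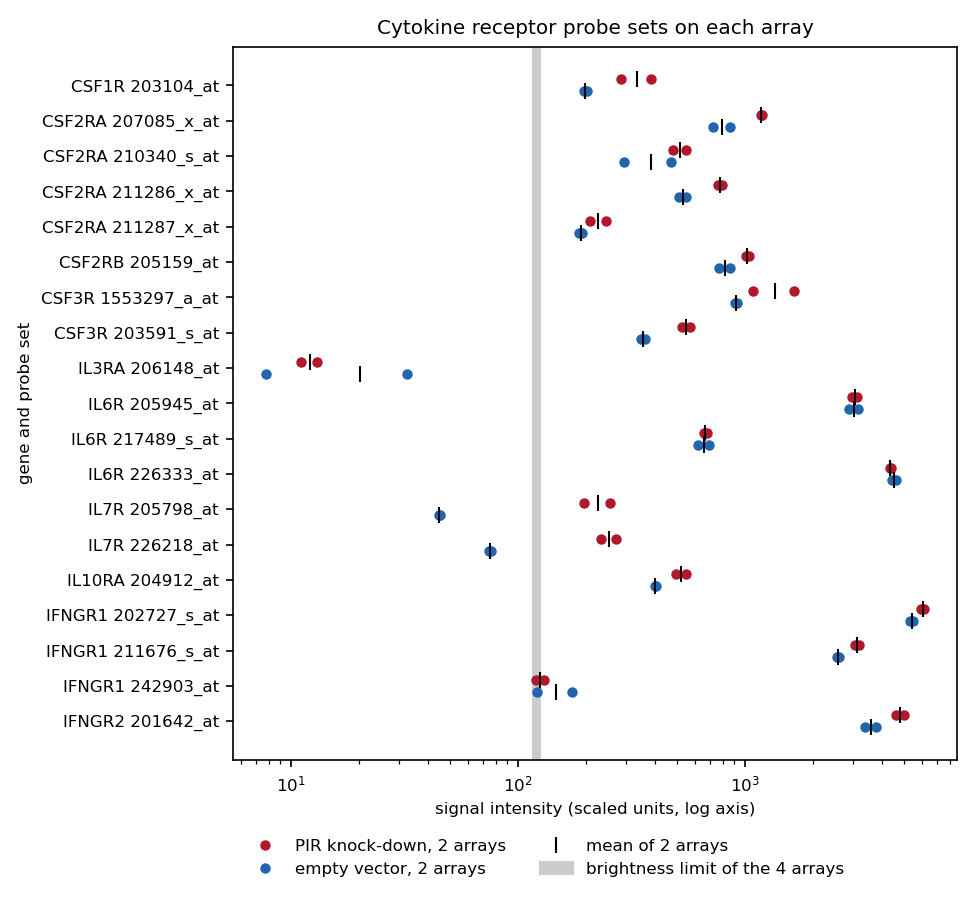
Signal intensity (log axis) of each of the 19 receptor probe sets on the 2 knock-down arrays (red, upper) and the 2 empty-vector arrays (blue, lower), with the mean of each pool as a black bar and the brightness limits of the arrays (116.4 to 125.5) as a grey band. Both IL7R probe sets lie above the band on the knock-down arrays and below it on the empty-vector arrays, and IL3RA lies far below it on all 4. Distances between probe sets do not compare transcript levels.

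PIR itself checked the labels: its only probe set, 207469_s_at, had signals of 83.4 and 91.5 on the knock-down arrays, against 1813 and 1882 on the empty-vector arrays. Median signals were 62.5 and 68.5 for the knock-down pool and 70.8 and 72.1 for the empty-vector pool, at a trimmed mean of about 500.07 on each array. Signal ratios of 3' over 5' probe sets ran from 0.98 to 1.00 for GAPDH and from 1.17 to 1.18 for ACTB on the knock-down arrays, and from 0.96 to 1.02 for GAPDH and from 1.17 to 1.18 for ACTB on the empty-vector arrays, so the ranges of the pools overlapped. Of 11 myelomonocytic markers with a probe set, 9 were measured, with summed signals of 86750 to 93061 on the knock-down arrays and 76623 to 78877 on the empty-vector arrays, and MPO and CD14 lay below the brightness limit on all 4 arrays. Of the 9, 6 had a positive difference and 3 a negative one. ANPEP (CD13) met the size rule at 2.05-fold higher. Both knock-down arrays lay above both empty-vector arrays for 5 of the 9: ANPEP, CD4 (0.84), PTPRC (0.69), ELANE (0.41) and ITGB2 (0.38). They lay below for PRTN3 (-0.41) and FUT4 (-0.39). Of all measured genes, 40.9% lay above in this way and 31.2% below. A second FUT4 probe set, 209893_s_at, went the other way at 0.27 with separate pools. Of the megakaryocyte markers 0 of 3 were measured, with summed signals of 114.9 to 134.6 on the knock-down arrays and 108.8 to 172.1 on the empty-vector arrays. Of the erythroid markers 0 of 2 were measured, at 141 to 188.8 on the knock-down arrays and 105.3 to 126.7 on the empty-vector arrays. Of the fibroblast markers 1 of 4 was measured (COL1A1), at 259.9 to 306.9 on the knock-down arrays and 285.3 to 311 on the empty-vector arrays.

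Sequence upstream of the receptor genes is shown for the receptor with the largest difference (IL7R), for 2 colony-stimulating factor receptors with smaller ones (CSF1R and CSF2RA) and for the receptor with the smallest (IL6R). Each is the 250 bases before a gene start in RefSeq on GRCh38.p14, read 5′ to 3′ on the gene's strand: chr5:35856641-35856890 on the plus strand for IL7R, chr5:150086555-150086804 on the minus strand for CSF1R (the downstream of its 2 listed starts), chrX:1268564-1268813 on the plus strand for CSF2RA, and chr1:154405093-154405342 on the plus strand for IL6R. Capitals mark the letters GAGGAA on either strand, the core of sites of PU.1, the ETS factor of myeloid and B-lineage cells encoded by SPI1.
IL7R: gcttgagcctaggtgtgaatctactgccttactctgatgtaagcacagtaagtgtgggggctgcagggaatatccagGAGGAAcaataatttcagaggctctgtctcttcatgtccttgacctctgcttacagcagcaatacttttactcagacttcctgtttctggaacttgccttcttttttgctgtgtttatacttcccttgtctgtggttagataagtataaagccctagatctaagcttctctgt
CSF1R: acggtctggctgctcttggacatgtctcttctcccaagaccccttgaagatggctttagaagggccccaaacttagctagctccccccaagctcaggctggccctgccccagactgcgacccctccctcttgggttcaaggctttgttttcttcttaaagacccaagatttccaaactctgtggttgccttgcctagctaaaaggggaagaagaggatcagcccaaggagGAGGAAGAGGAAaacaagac
CSF2RA: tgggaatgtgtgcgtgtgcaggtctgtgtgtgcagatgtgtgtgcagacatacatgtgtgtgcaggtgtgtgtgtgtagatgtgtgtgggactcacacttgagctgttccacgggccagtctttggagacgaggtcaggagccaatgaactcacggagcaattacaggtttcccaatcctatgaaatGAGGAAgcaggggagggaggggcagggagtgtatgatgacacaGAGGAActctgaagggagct
IL6R: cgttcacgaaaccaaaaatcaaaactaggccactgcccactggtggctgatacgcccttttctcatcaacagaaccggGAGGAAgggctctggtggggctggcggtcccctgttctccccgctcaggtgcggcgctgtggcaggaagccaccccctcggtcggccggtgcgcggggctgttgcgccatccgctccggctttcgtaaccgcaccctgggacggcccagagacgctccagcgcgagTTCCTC

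For 9 of the 10 genes, all but CSF2RB, 12 windows of 250 bases were read. The PU.1 core stood in 7 of the 12 windows, in 7 genes, and in 23.6% of all 34789 windows of this length. In CSF1R it occurred at -20 and -14 from the start (2 adjoining copies), in CSF2RA at -63 and -20, in IL10RA at -20, in CSF3R at -111, in IL7R at -173, in IFNGR1 at -184 and in IL6R at -172 and -6. The windows of IL3RA and IFNGR2 did not hold these letters, and neither did the other window of CSF1R, CSF3R and IFNGR1. For CSF1R and CSF3R the window without them was that of the upstream start. The letters TTNNGNAA, a form of the C/EBP core, stood in 9 of the 12 windows on either strand and in 33.2% of all windows, and the STAT element TTCNNNGAA stood in 1, that of IL3RA, and in 6.57% of all windows. These are matches of letters and not binding sites. SPI1 itself had signals of 656.1 and 733.3 on the knock-down arrays, against 701.4 and 830.5 on the empty-vector arrays, and the 2 pools overlapped.

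IL7R, the interleukin-7 receptor alpha chain, is best known for the growth of lymphoid progenitors and T cells and also serves the receptor of the cytokine TSLP together with CRLF2. Its probe set 226218_at had signals of 232.6 and 271.6 on the knock-down arrays, against 74.7 and 76.4 on the empty-vector arrays. Its probe set 205798_at had signals of 195.4 and 255.7 on the knock-down arrays, against 44.9 and 45.2 on the empty-vector arrays. The pools were far apart on both probe sets, and the empty-vector arrays agreed closely with each other. The log2 difference was 1.52 (2.87-fold) for 226218_at, with array-by-array differences from 1.41 to 1.64, and 1.93 (3.82-fold) for 205798_at, with differences from 1.75 to 2.11. On the first, 99.4% of measured genes had a smaller difference. IL7R counted as measured through its knock-down signals alone, so this rank follows in part from the brightness limit.

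The size of the IL7R difference is uncertain, since both empty-vector arrays lay below the brightness limit. Set against that limit in place of its own empty-vector signal, with no pseudocount, IL7R was at least 2.00-fold higher on 226218_at and at least 1.78-fold higher on 205798_at. Without a pseudocount the log2 differences were 1.73 and 2.31, and with one 4 times larger they were 1.12 and 1.33. Lymphoid markers stood beside this as follows. All 4 T cell markers with a probe set (CD3D, CD3E, CD3G and CD2) were below the limit on every array, with summed signals of 168 to 185 on the knock-down arrays and 95.4 to 105.4 on the empty-vector arrays. Of 3 B cell markers, CD79A and PAX5 were measured and MS4A1 was not, with summed signals of 579.3 to 711.4 on the knock-down arrays and 674.2 to 800.1 on the empty-vector arrays. The part of lymphoid transcripts in the IL7R difference was not tested.

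**Figure D2:**
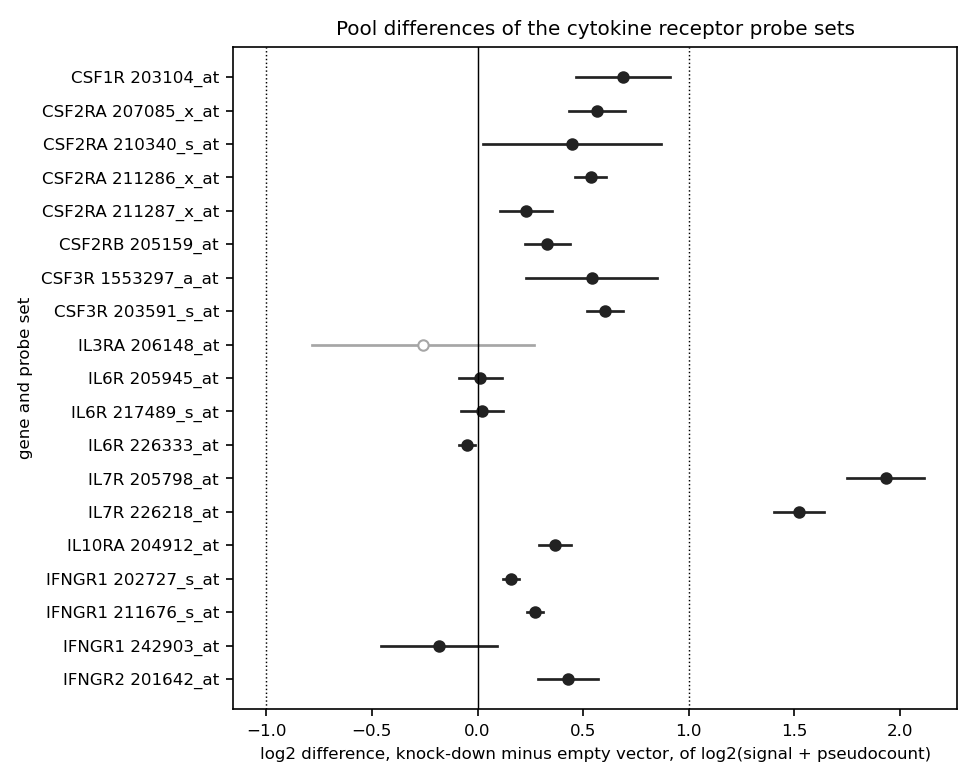
Log2 difference of each receptor probe set, knock-down minus empty vector (points), with the lowest and highest of the 4 array-by-array differences (lines), and dotted lines at 2-fold. The hollow grey point is IL3RA, which was not measured. The IL7R probe sets alone lie wholly beyond the dotted line, those of CSF1R, CSF2RA, CSF2RB, CSF3R, IL10RA and IFNGR2 lie between 0 and 1, and the 3 IL6R points lie close to 0.

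Among the receptors of colony-stimulating factors, CSF1R, which macrophages need for survival and maturation, had signals of 384.2 and 284.8 on the knock-down arrays, against 195.9 and 201 on the empty-vector arrays. Both knock-down arrays were above both empty-vector arrays, and the first knock-down array was well above the second. The log2 difference was 0.69 (1.61-fold), with array-by-array differences from 0.47 to 0.91, and it was 0.48 without knock-down replicate 1 and 0.89 without knock-down replicate 2. It stayed short of 2-fold under each of these, and 93.7% of measured genes had a smaller difference.

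CSF3R, the G-CSF receptor of the neutrophil lineage, had 2 probe sets that gave similar differences with unequal error. The probe set 203591_s_at had signals of 529.7 and 573.9 on the knock-down arrays, against 364.3 and 349.2 on the empty-vector arrays, a log2 difference of 0.60 (1.52-fold). The probe set 1553297_a_at had 1085 and 1644 on the knock-down arrays, against 921.5 and 904.6 on the empty-vector arrays. Its knock-down arrays were 0.59 apart on the log2 scale, more than the difference of 0.54 (1.45-fold) between the pools, which was 0.24 without knock-down replicate 2 and 0.84 without knock-down replicate 1. The pools did not overlap on either probe set.

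CSF2RA, the alpha chain of the GM-CSF receptor, lies in the pseudoautosomal region of the sex chromosomes beside IL3RA. All 4 of its probe sets had both knock-down arrays above both empty-vector arrays. The brightest, 207085_x_at, had signals of 1191 and 1172 on the knock-down arrays, against 726.9 and 863.1 on the empty-vector arrays, a log2 difference of 0.57 (1.48-fold). The probe set 211286_x_at had 762.8 and 794.8 on the knock-down arrays, against 514.3 and 549.5 on the empty-vector arrays, at 1.45-fold. The other two were less certain: 210340_s_at differed by 0.45, with empty-vector signals of 474.9 and 293.3 that were 0.66 apart on the log2 scale, and 211287_x_at by 0.23. Identifiers ending in _x_at mark probes that can match related transcripts, and probe sets of 1 gene share its transcripts, so the 4 are not independent.

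CSF2RB, the beta chain that the GM-CSF, interleukin-3 and interleukin-5 receptors share, had signals of 1008 and 1044 on the knock-down arrays, against 766.2 and 860.8 on the empty-vector arrays. The pools did not overlap, and the log2 difference was 0.33 (1.26-fold). IL3RA, the interleukin-3 binding chain, was listed at 13.1 and 11.1 on the knock-down arrays and at 7.8 and 32.4 on the empty-vector arrays. These values lie far below the brightness limit on all 4 arrays and overlap, so a difference in IL3RA was not detectable here. Of the GM-CSF and interleukin-3 receptor chains, the GM-CSF alpha chain and the shared beta chain were thus measured and the interleukin-3 alpha chain was not.

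Both chains of the interferon-gamma receptor were measured. IFNGR2, the chain that recruits JAK2, had signals of 4623 and 5029 on the knock-down arrays, against 3386 and 3792 on the empty-vector arrays, a log2 difference of 0.43 (1.34-fold). IFNGR1, the ligand-binding chain, had 5993 and 6159 on the knock-down arrays, against 5513 and 5365 on the empty-vector arrays for 202727_s_at, a log2 difference of 0.16 (1.12-fold). For both genes the pools were separate. The second IFNGR1 probe set, 211676_s_at, had 3174 and 3056 on the knock-down arrays, against 2594 and 2558 on the empty-vector arrays, a log2 difference of 0.27 (1.21-fold). The third, 242903_at, had signals near the brightness limit, with 120.6 and 130.8 on the knock-down arrays, against 121.6 and 172.5 on the empty-vector arrays, so the pools overlapped and its difference of -0.18 had the opposite sign.

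IL10RA, the ligand-binding chain for the anti-inflammatory cytokine interleukin-10, had signals of 552.1 and 498.8 on the knock-down arrays, against 404.5 and 401.3 on the empty-vector arrays. The pools were separate, at a log2 difference of 0.37 (1.29-fold). IL6R, the interleukin-6 binding chain, had 4341 and 4417 on the knock-down arrays, against 4455 and 4610 on the empty-vector arrays for 226333_at. The knock-down arrays lay just below the others, by a log2 difference of -0.05, and this turned to 0.08 when the arrays were scaled to a common median. Its probe set 205945_at had 2966 and 3123 on the knock-down arrays, against 3157 and 2879 on the empty-vector arrays, a log2 difference of 0.01. The remaining one, 217489_s_at, had 660.5 and 680.6 on the knock-down arrays, against 623.6 and 697.5 on the empty-vector arrays, a log2 difference of 0.02. The pools overlapped on both of these.

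**Figure D3:**
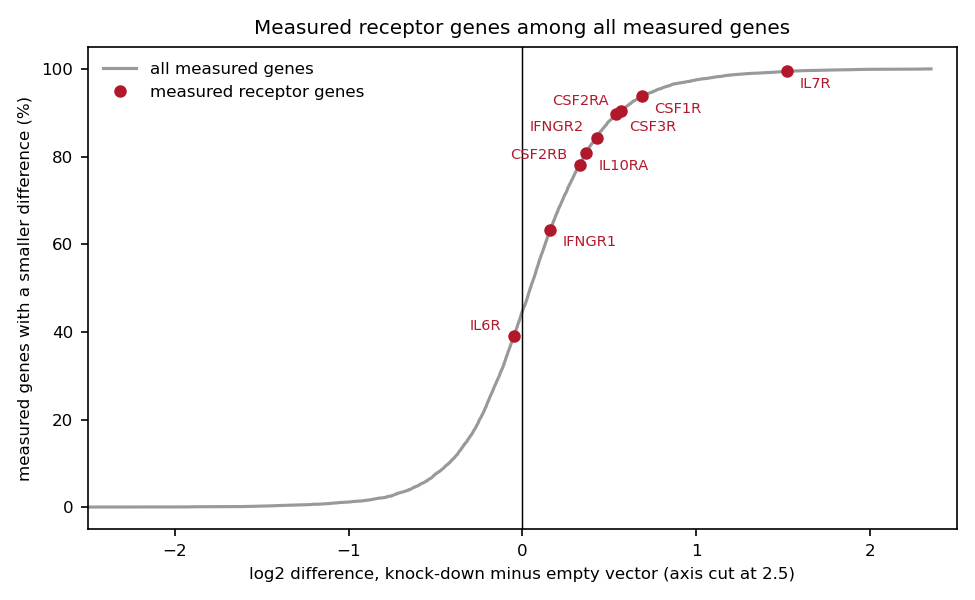
Share of all measured genes (vertical axis, percent) with a smaller log2 difference than the value on the horizontal axis (knock-down minus empty vector), drawn as a grey line for 10288 measured genes with the 9 measured receptor genes as red points. IL7R sits at 99.4%, CSF1R at 93.7%, IFNGR1 at 63.3% and IL6R at 39.0%, so the receptors spread over the upper part of the range with IL6R near its middle. IL7R counted as measured through its knock-down signals alone.

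The partner chains of these receptors were next set beside them. Of the 5 partner chains, 4 were measured. Each of these had both knock-down arrays above both empty-vector arrays, as did 40.9% of all measured genes. On the probe set that represents the gene 0 met the rule, and the median log2 difference was 0.71. CRLF2, the TSLP receptor chain that pairs with IL7R, had signals of 283.2 and 289.5 on the knock-down arrays, against 194.9 and 81.4 on the empty-vector arrays. CRLF2 counted as measured through its knock-down signals alone. Its difference of 1.06 (2.09-fold) missed the rule by the margin over array pairs, since the empty-vector arrays were far apart and one pair differed by only 0.50. CRLF2 met the rule at 1.61 without empty-vector replicate 1, at 1.08 without knock-down replicate 1, at 1.07 after quantile normalization and at 1.18 after common median scaling, and it differed by 0.51 without empty-vector replicate 2. IL2RG, the common gamma chain, had 4473 and 4391 on the knock-down arrays, against 2989 and 3045 on the empty-vector arrays, a log2 difference of 0.55 (1.47-fold).

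IL6ST, the gp130 chain, had signals of 827.2 and 1031 on the knock-down arrays, against 423.4 and 639.8 on the empty-vector arrays, a log2 difference of 0.80 that was 0.52 without empty-vector replicate 1 and 1.09, past the rule, without empty-vector replicate 2. A second IL6ST probe set, 212196_at, had 323.1 and 344.5 on the knock-down arrays, against 139.3 and 170.5 on the empty-vector arrays, and met the size rule at 2.04-fold. In the interleukin-6 receptor the signalling chain therefore had higher signals in the knock-down pool and the binding chain IL6R did not. IL10RB differed by 0.62 (1.54-fold), with both pools separate. IL5RA, the interleukin-5 binding chain, was below the brightness limit on all 4 arrays, listed at 5.2 and 4.7 on the knock-down arrays and at 86.4 and 63.9 on the empty-vector arrays.

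Of the 10 ligands of these receptors, 9 were on the array with a probe set of that gene alone, and 0 of them were measured: CSF1, IL34, CSF3, IL3, IL6, IL7, TSLP, IL10 and IFNG all lay below the brightness limit on every array. Their summed signals were 188.8 to 254.1 on the knock-down arrays and 219.6 to 256.9 on the empty-vector arrays. CSF2 was not analysed here.

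Of the JAK kinases and STATs, 8 were measured, 0 met the size rule in either direction, and the median log2 difference was 0.27. Of all measured genes, 2.43% were higher and 1.08% lower by this rule. JAK2, the kinase used by the GM-CSF, interleukin-3, G-CSF and interferon-gamma receptors, had signals of 319.1 and 419.7 on the knock-down arrays, against 216.3 and 241.4 on the empty-vector arrays, a log2 difference of 0.64 (1.56-fold), and its other measured probe set gave 0.56. JAK1 differed by 0.23 and TYK2 by 0.32. JAK3, the kinase bound by IL2RG, differed by 0.08 with overlapping pools on its brightest probe set, and by 0.56 on 207187_at. STAT6, the interleukin-4 factor, differed by 0.52 and STAT3, the factor of interleukin-6 and interleukin-10, by 0.30. STAT5A and STAT5B, which act downstream of the GM-CSF, interleukin-3 and interleukin-7 receptors, went the other way. STAT5A had 604.4 and 783.2 on the knock-down arrays, against 857.5 and 847.1 on the empty-vector arrays, a log2 difference of -0.30, and STAT5B on 212549_at differed by -0.26, with both pools separate in each. The other STAT5B probe sets gave -0.35 with separate pools (212550_at) and -0.05 with overlapping pools (205026_at). STAT4 was not measured.

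**Figure D4:**
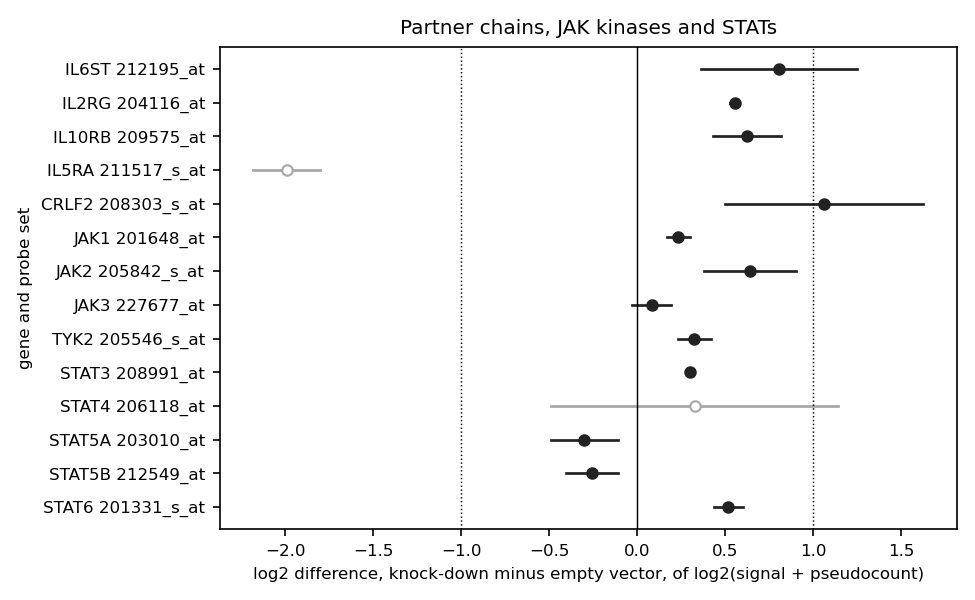
Log2 difference, knock-down minus empty vector, of the partner chains (upper 5 rows) and of the JAK kinases and STATs (lower 9 rows), 1 probe set per gene, with the lowest and highest of the 4 array-by-array differences as lines and dotted lines at 2-fold. Hollow grey points (IL5RA and STAT4) were not measured. STAT5A and STAT5B are the measured genes left of 0.

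The remaining lists of the pathway are counted with 1 probe set per gene, the one of highest mean log2 signal. For comparison, 55.2% of all measured genes had a positive difference, and 2.43% were higher and 1.08% lower by the size rule. Among 16 measured receptors of other cytokines, 0 met the size rule on that probe set, 12 had a positive difference, and the median was 0.20 (0.07 to 0.37 over the alternatives), the 4 negative ones being IFNAR1 (-0.46), IL9R (-0.38), CNTFR (-0.12) and IL11RA (-0.05). Dimmer probe sets of 2 of these receptors met the rule, 219971_at of IL21R at 1.55 and 239522_at of IL12RB1 at 1.45, with empty-vector signals below the brightness limit, while the representing probe sets gave 0.47 for IL21R and 0.75 for IL12RB1. Dimmer IFNAR1 probe sets went both ways with separate pools, 204191_at at 0.18 and 225669_at at -0.54. IL9R counted as measured through its empty-vector signals alone. The 15 measured adaptors and downstream kinases were positive in 13 cases and met the rule in 0 on the representing probe set. Their median was 0.18, and it was 0.11 without knock-down replicate 2, 0.06 without empty-vector replicate 1, 0.07 with the brightness limit at the 75th percentile and 0.30 after common median scaling. A dim probe set of CBL, 243475_at, met the rule at 1.88, while the one representing this ubiquitin ligase differed by 0.05 with overlapping pools. Of 16 negative regulators and receptor sheddases, 6 were positive, 10 were negative and 0 passed the rule, and the median of -0.07 was 0.05 after scaling to a common median. Of the 7 measured interferon-gamma target genes, GBP2 (0.27) and GBP5 (0.86) counted as measured through their knock-down signals alone. The 7 had a median of 0.49, raised in part by this filter, with 5 positive and 0 that met the rule. PSMB9, an immunoproteasome subunit, was just short of it at 0.99 and passed at 1.07 without knock-down replicate 2, at 1.01 without empty-vector replicate 2 and at 1.11 after common median scaling. The median of the list was -0.24 when dim genes were included and 0.10 without empty-vector replicate 2. Among 14 measured targets of STAT3 and STAT5 the median was 0.01, and it ran from -0.07 with dim genes included to 0.14 after common median scaling. FOS, an AP-1 subunit, was higher in the knock-down pool by 2.14-fold, with 1097 and 1081 on the knock-down arrays, against 485.8 and 513.6 on the empty-vector arrays. ID1, an inhibitor of helix-loop-helix factors, had 341.1 and 284.2 on the knock-down arrays, against 668.3 and 679.8 on the empty-vector arrays. Its log2 difference of -1.07 met the rule, but it was -0.95 without knock-down replicate 2 and also after common median scaling. CISH, a feedback gene of STAT5, differed by -0.07 with overlapping pools. The 9 measured transcription factors of myeloid receptor genes had a median of 0.10, with 6 positive and 0 that met the rule.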

How the data were processed

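TRIzol RNA cleaned on RNeasy columns was made into biotin-labelled cRNA, per the labels' protocols. The deposited table holds 1 linear signal intensity per probe set and array, made with GCOS per the submitters' processing notes, with version and settings not given in the sources used here. Detection calls were not used here, so a percentile of signal served as brightness limit. The use of 1 pool per condition, the number of arrays and, for dim probe sets, the pseudocount limit the precision.

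After 62 AFFX controls were left out, 41091 of 54613 probe sets had 1 gene symbol, 1801 several and 11721 none; gene identifiers of 41037 matched the reference gene table. The pseudocount, 18.4, averages the 25th percentiles of the 4 arrays. Arrays of a pool were averaged as 1 sample, with no test of the condition. All member probe sets were named, with PIR, measured partner chains, JAKs and STATs, and other list genes that met the size rule. IL5RA, the ligands, SPI1, CISH, PSMB9, GBP2, GBP5, CBL, IL21R, IL12RB1, the lineage markers and genes completing a count were named after their values were seen. The members, lists and rules were chosen with earlier results of these data known. The size rule and limma were tested on simulated data. Alternatives were other pseudocounts, brightness limits and scalings, a 1.5-fold limit with a lower margin, and no margin. Others were averaged probe sets, each array left out, a replicate block, and limma on the 4 arrays. Python 3.11.15, numpy 2.4.6, pandas 2.3.3, R 4.3.3 and limma 3.58.1 were used.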

Additional observations from a re-analysis of the deposited data

How the results depend on the processing

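The 2 higher IL7R probe sets and 1 higher gene, with 0 lower, were also found with other pseudocounts, with no brightness limit, after quantile normalization and common median scaling, without the margin over array pairs, and with each array left out in turn (2 to 2 probe sets, 1 to 1 genes). With the brightness limit at the 75th percentile 0 probe sets and 0 genes were higher, since the knock-down signals of IL7R lie below that limit. With a 1.5-fold limit, and the margin over array pairs lowered along with it, 4 probe sets and 2 genes (IL7R and CSF1R) were higher. In this setting 8.16% of measured probe sets and 8.51% of measured genes were higher. CSF1R passed by the lower margin only, since its smallest array-by-array difference was 0.47, short of 0.5. The median log2 difference of the receptor genes ran from 0.37 to 0.51 with single arrays left out and was 0.55 after common median scaling, which moved the median of all measured genes to 0.17 from 0.05. With the replicate block, the difference taken within the 2 same-numbered array pairs, 2 probe sets and 1 gene were higher and the median was 0.43. Deviations of same-numbered arrays had a correlation of 0.00403 across measured probe sets. The labels do not say whether same-numbered arrays were handled together, and 1 correlation cannot decide it. limma on the 4 arrays, which measures the pools by the error of hybridisation and does not test the conditions, called 2 probe sets and 1 gene higher at an adjusted p below 0.05 and 2-fold, with and without the block, where it called 0.89% of all probe sets and 1.32% of all genes higher without the block and 0.927% and 1.42% with it. Of 171 recomputed differences of single receptor probe sets, 151 moved by less than 1 SD between arrays and 7 changed sign, all in IL6R, IL3RA or the dim IFNGR1 probe set 242903_at. Of 234 recomputed values of the pathway lists, 179 stayed within 1 SD or 1.5 times.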
